A study of Mus musculus with 58 samples.

Results

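The genes described here are 10 synaptotagmins, Syt1 to Syt7 and Syt9 to Syt11, taken by name from a count table of 25648 genes. RNA was counted in single cells marked by parvalbumin (PV cells) in the ventral subiculum of the mouse, the output region at the end of the hippocampus. PV cells are fast-spiking inhibitory interneurons that release GABA. In these mice (PV-Cre::Ai9) Cre recombinase is made under the parvalbumin gene and turns on a red reporter, which stays on in the cell from then on. Each library is 1 cell, whose cytosol was taken up with a patch pipette.

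The series holds 58 cells, 29 from 4 males and 29 from 3 females, of which 54 carry the label Pass for quality control and are used here. No cell has a treatment or a second genotype. The Pass cells fall into 4 groups by sex and postnatal day, namely 14 cells of males at P35, 13 of males at P36, 17 of females at P40 and 10 of females at P42. Sex and age therefore cannot be told apart. Because no label says which animal a cell came from, the counts of each group were summed into a pool for any comparison between the sexes, and p-values measure only the spread between these pools. Cells are numbered within each sex.

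Total counts per Pass cell ran from 2.05 to 52.3 M, with a median of 11.5 M, and the 4 pools held 123 to 229 M. No 2 cells had identical counts. Gad1, which makes GABA, stood at 1337 to 6751 CPM (the count scaled to 1 M counts in a cell) in the 54 cells, and Pvalb reached 10 CPM in 47 of them. Sst, Vip or Slc17a7, which mark other interneurons and excitatory neurons, had more counts than Pvalb in 20 cells, 7 in each male pool and 3 in each female pool. The other 34 are called Pvalb-leading cells below. The name refers to these 3 markers only, and Cck was not part of the screen. Median levels were 346 CPM for Gad2 and 24.5 CPM for Slc32a1, which make and load GABA, and 148 CPM for Cck, 283 for Mbp, 53.3 for C1qb, 667 for Aldoc and 31.0 for Hba-a1, which mark Cck interneurons, oligodendrocytes, microglia, astrocytes and red blood cells.

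Synaptotagmins are vesicle and membrane proteins with a pair of calcium-binding C2 domains. Syt1, Syt2 and Syt9 are the fast sensors, which bind calcium at the nerve terminal and trigger synchronous transmitter release. Syt2 is the usual fast sensor of the hindbrain and spinal cord and is known as a marker of the terminals of PV cells in the forebrain, where Syt1 serves most other neurons. Syt7 binds calcium with high affinity and acts in delayed release and facilitation. Syt3, Syt6 and Syt10 form a subgroup joined by disulfide bonds near their start. Syt4 and Syt11 share a serine in place of an aspartate in the first C2 domain.

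That difference can be read in the coding sequence. The lines below give 27 bases of the first C2 domain, in the sense of the mRNA, from GENCODE vM21 transcripts on GRCm38. Capitals mark the codons at positions 1, 3 and 9, which in Syt1 encode aspartates that hold calcium. They are shown for the fast sensors that the results turn on, for Syt3 and Syt7 as high-affinity members, and for Syt11 as the most abundant member.
Syt1: GATtttGACcgcttctccaagcacGAC
Syt2: GACtttGACcgcttctctaagcatGAC
Syt3: GACttcGACcgcttctcgcggcatGAT
Syt7: GATtatGACcgtttcagccgcaatGAC
Syt11: AGCtttGATcgattctctcgggatGAC

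The Syt1 gene spans chr10:108497650-109010982 and the Syt2 gene chr1:134646677-134762593. In Syt1 the stretch begins at codon 230 of 421 and lies in exon 9 of 12 of its transcript, on the minus strand at chr10:108627346-108627372. In Syt2 it begins at codon 231 of 422 and lies in exon 6 of 9, on the plus strand at chr1:134744432-134744458. The Syt3 stretch lies in exon 6 of 11 (plus strand, chr7:44393448-44393474), that of Syt7 in exon 10 of 13 (plus strand, chr19:10442878-10442904) and that of Syt11 in exon 3 of 5 (minus strand, chr3:88761819-88761845). All 3 marked codons encode aspartate in Syt1, Syt2, Syt3, Syt5, Syt6, Syt7, Syt9 and Syt10. In Syt11 and in Syt4 the first of them encodes serine and the other 2 encode aspartate. The transcripts of the 10 genes shared 0 stretches of 50 bases with each other, so reads of that length can be told apart between members. With other genes they shared 0% to 0.0262% of such stretches for Syt1, Syt2, Syt3, Syt5, Syt9 and Syt10, and 4.25% (Syt7), 5.92% (Syt11), 7.59% (Syt6) and 10.9% (Syt4).

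Syt1, the fast sensor of most forebrain neurons, was present in every Pass cell and varied little. Its level was 289 CPM in the lowest cell, 663 CPM at the median and 1713 CPM in the highest, with a coefficient of variation of 34.5% over the 54 cells. Syt11, which is known to restrain endocytosis, had nearly the same spread, from 258 CPM through a median of 930 CPM to 2071 CPM, a coefficient of variation of 34.3%. Syt4, found on dense-core vesicles, ran from 62.7 through 150 to 289 CPM, and Syt3 from 41.98 through 255 to 476 CPM. These 4 members exceeded 10 CPM in all 54 cells.

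Syt2, in contrast, spread over a wide range. Its level was 0.181 CPM in the lowest cell, 57.7 CPM at the median and 320 CPM in the highest, with quartiles at 7.68 and 101 CPM. The coefficient of variation was 104%, close to the 119% of Pvalb. The cell at the 90th percentile held 122 times the level of the cell at the 10th. All 54 cells had at least 1 count of Syt2, 53 reached 1 CPM and 39 reached 10 CPM. At the low end, 14 cells lay between 1 and 10 CPM and 1 below 1 CPM, while 14 cells lay at 100 CPM or more. The highest were male cell 18 at 320 CPM, male cell 14 at 275 CPM and male cell 22 at 216 CPM. Low values were not confined to shallow libraries: female cell 3, the deepest of all at 52.3 M counts, held 91 counts of Syt2, or 1.74 CPM, beside 33315 counts of Syt1. Across cells Syt2 had a Pearson correlation of -0.01 with the log2 total count.

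Syt5 spread as widely as Syt2. It ran from 0.295 CPM through a median of 32.1 CPM to 342 CPM, with a coefficient of variation of 138%, and 38 of 54 cells reached 10 CPM. Syt7, the slow sensor, was intermediate, with 1.34, 47.2 and 143 CPM as lowest, median and highest and a coefficient of variation of 62.4%. After each cell was thinned to 2 M counts, Syt1, Syt2, Syt3, Syt4, Syt7 and Syt11 still had a count in all 54 cells and Syt5 in 52.

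The other 3 members had no count in most cells. Syt9, also a fast sensor, was counted in 18 of 54 cells, of which 2 held 10 CPM or more, and male cell 21 held the most at 19.7 CPM. Syt6 had a count in 21 cells and a highest value of 21.2 CPM in female cell 1. Syt10 had a count in 4 cells, and 94.2% of its summed level came from female cell 5 and male cell 23. In 2 pools Syt10 had 0 counts, where 3 counts would be 0.0185 CPM (males at P36) and 0.0244 CPM (females at P42).

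**Figure D1:**
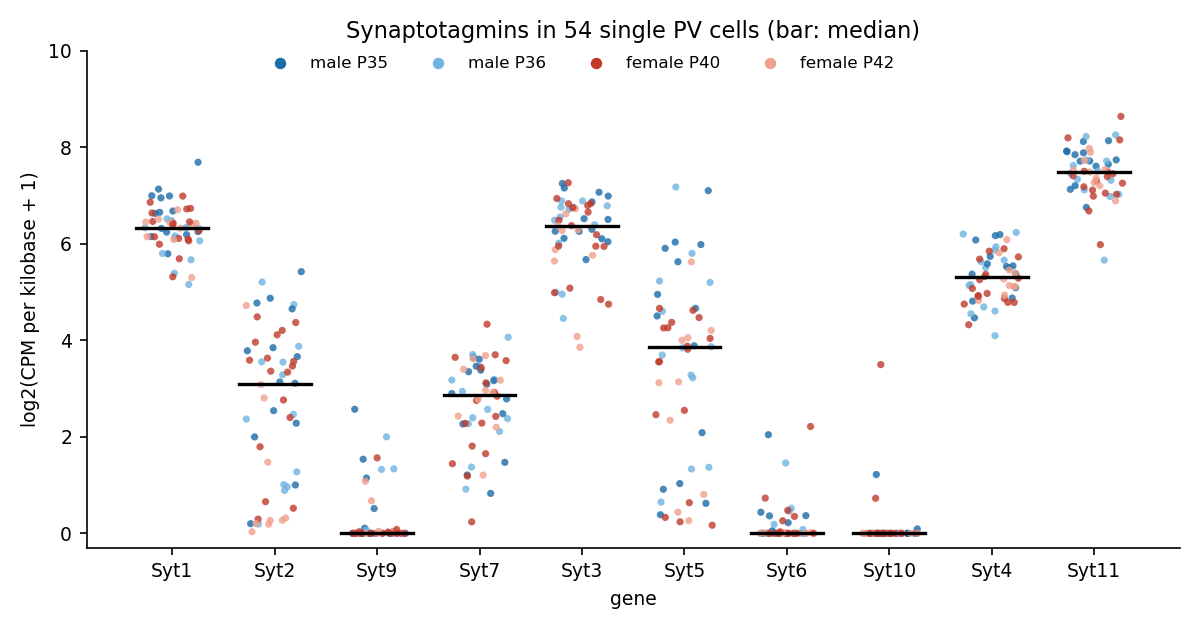
Each point is 1 of 54 Pass cells, coloured by sex and age, and shows log2(CPM per kilobase of exon + 1) for 10 synaptotagmins ordered by role; bars are medians over cells. Syt1, Syt3, Syt4 and Syt11 form tight high bands, Syt2 and Syt5 spread from near 0 to above 5 on this scale, and Syt6, Syt9 and Syt10 lie at 0 in most cells.

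To set genes of unequal length side by side, CPM was divided by the length of all annotated exons of the gene, for example 8338 bases for Syt1, 7638 for Syt2 and 5205 for Syt11. On this scale Syt11 led with a median of 179 CPM per kilobase and was the highest member in 52 of 54 cells. Syt3 followed at 81.9, Syt1 at 79.5, Syt4 at 38.5, Syt5 at 13.5, Syt2 at 7.56 and Syt7 at 6.31 CPM per kilobase. Several neighbours in that order did not separate. Syt3 exceeded Syt1 in 26 of 54 cells, Syt5 exceeded Syt2 in 32, and Syt2 exceeded Syt7 in 31. Syt1 exceeded Syt4 in 52 cells, and Syt4 exceeded Syt5 in 46.

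As a share of the summed per-kilobase level of the 10 members, Syt11 made up a median of 42.1%, Syt1 19.3%, Syt3 18.8%, Syt4 9.35% and Syt5 3.51%. Syt2 contributed a median of 1.61% and at most 8.41%, and Syt7 a median of 1.42%. The order near the top depended on the length used. With the longest transcript Syt3 exceeded Syt1 in 11 cells, and with the coding length in 0, so Syt1 then ranked second. By coding length Syt2 also ranked above Syt5, which it exceeded in 32 of 54 cells. Syt11 remained the member of highest median with each of the 3 lengths.

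The Syt2 level was below that of Syt1 in every cell. Per kilobase, Syt2 exceeded Syt1 in 0 of 54 cells. The exact 95% interval reaches 6.60% of cells for counting error only (cells that share an animal are not independent). The same count of 0 was found without length correction and with coding or longest transcript length. Syt1 stood above Syt2 by a median factor of 13.4 per kilobase, with quartiles at 4.95 and 73.2. The nearest to equality was male cell 14, where Syt1 was 341 CPM and Syt2 275 CPM, a factor of 1.14 per kilobase. Low Syt1 and high Syt2 met in that cell. The next nearest cells were female cell 15 with Syt1 at 583 CPM and Syt2 at 194 CPM, and male cell 18 with Syt1 at 1052 CPM and Syt2 at 320 CPM. At the other end female cell 18 had 3 counts of Syt2 beside 14286 of Syt1, a factor of 4362 with a 95% counting interval of 1493 to 21153.

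High Syt2 did not go with low Syt1 across cells as a whole. The Pearson correlation of Syt2 with Syt1 in log2(CPM + 1) was 0.03 over 54 cells, and within the pools it was -0.08, -0.33, 0.38 and -0.33 in the order males at P35, males at P36, females at P40 and females at P42. In the 34 Pvalb-leading cells Syt2 had a median of 83.4 CPM, against 57.7 CPM in all 54, and 9 of the 34 still lay under 10 CPM.

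**Figure D2:**
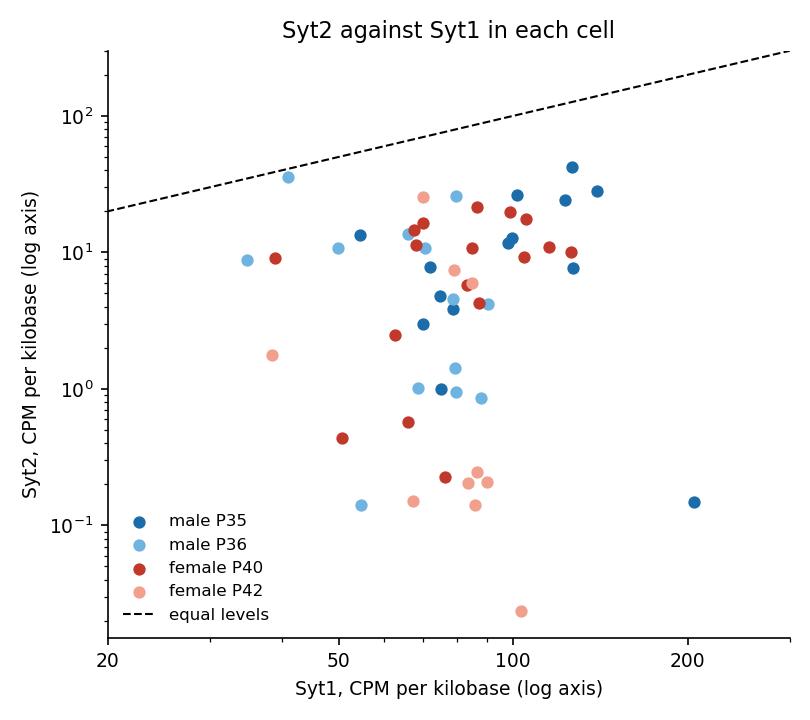
Each point is 1 Pass cell, with Syt1 on the x axis and Syt2 on the y axis, both in CPM per kilobase on log axes; the dashed line marks equal levels. All 54 cells lie below the line, and the cells span a far longer range in Syt2 (0.0237 to 41.9) than in Syt1 (34.7 to 205).

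In the summed pools Syt1 exceeded Syt2 per kilobase by factors of 7.81 (males at P35), 6.16 (males at P36), 8.93 (females at P40) and 19.2 (females at P42). The log2 ratio of Syt2 to Syt1 was -3.25 ± 0.71 (SD, n = 4 pools) and negative in 4 of 4 pools. An exact two-sided sign-flip test gave p = 0.125, the smallest value that 4 pools allow. The female pools had a ratio lower by 0.92 than the male pools on the log2 scale (-0.92, females minus males). The exact two-sided permutation p was 0.333, again the smallest possible with 2 pools a sex, so this design cannot call such a difference. It was -0.36 without the females at P42 and -1.47 without those at P40. With the log2 ratio averaged over cells in place of summed counts, the sexes overlapped, at -3.38 and -3.48 in the male pools and -3.34 and -4.94 in the female pools, with an exact permutation p of 1.

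Cells with little Syt2 were most frequent among the females at P42. Syt2 was under 10 CPM in 6 of their 10 cells, compared with 2 of 14, 4 of 13 and 3 of 17 in males at P35, males at P36 and females at P40. The median per cell was 1.74 CPM in this pool and 74.3, 34.5 and 76.8 CPM in the others. The other 4 cells of the pool held 13.6, 45.8, 57.2 and 194 CPM. Since several cells can come from 1 animal and the labels do not say which, whether these low cells share an animal was not tested.

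Summed over cells, Syt2 was 98.7 CPM in males at P35, 80.4 in males at P36, 70.0 in females at P40 and 31.0 in females at P42. Both female pools lay below both male pools. The log2 difference, females minus males, was -0.83 ± 0.39 (SE), which was no call (edgeR's quasi-likelihood test, adjusted p = 0.929, and 0.260 to 0.9997 over the 13 fits run). The difference rests largely on the females at P42: without that pool it was -0.34 (adjusted p = 0.769), and without the females at P40 it was -1.52 (adjusted p = 0.260). In Pvalb-leading cells alone it was -1.43 (adjusted p = 0.886). Syt1 was 841, 541, 683 and 651 CPM in the same order of pools, and the sexes overlapped, with a log2 difference of -0.05 ± 0.22 (SE, adjusted p = 0.999), which turned to 0.30 without the males at P35.

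**Figure D3:**
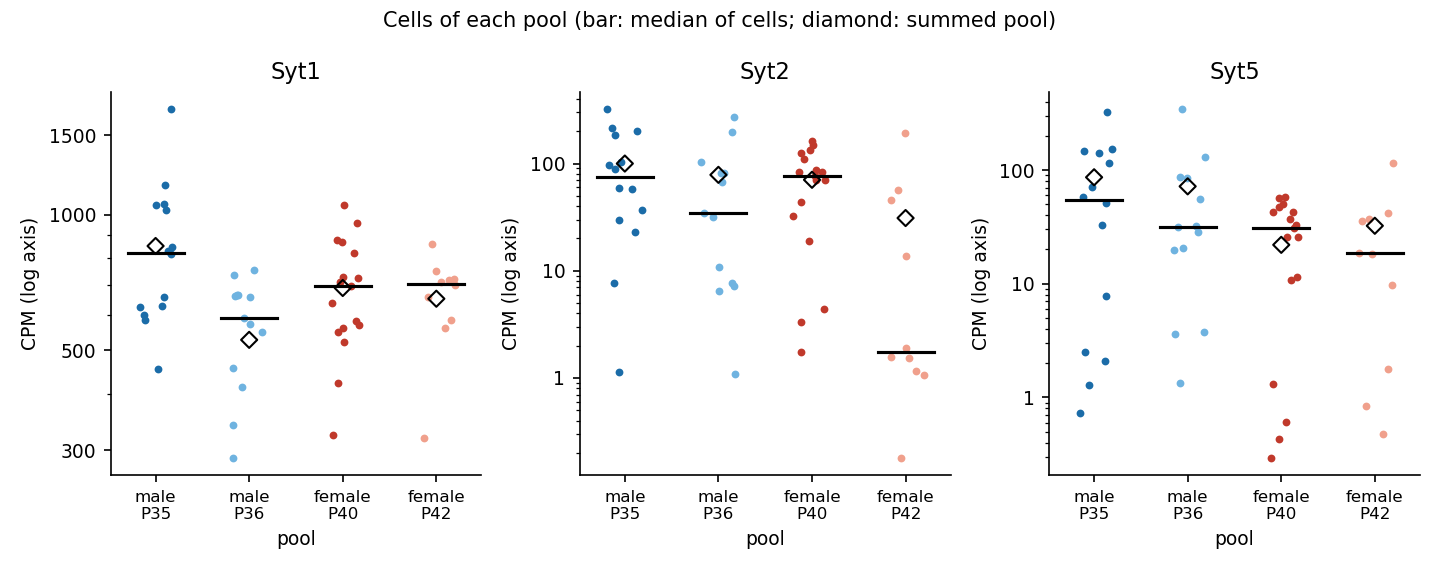
CPM on a log axis of Syt1, Syt2 and Syt5 in the cells of each sex and age pool; points are cells, bars the median of cells and diamonds the level in the summed pool. Syt1 cells overlap in all 4 pools, while 6 of the 10 cells of females at P42 sit below 2 CPM for Syt2 and the top Syt5 cells are male.

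Syt5 gave the largest difference for its error among the members. The male pools held 85.3 and 73.7 CPM, and the female pools 21.8 and 32.3 CPM, so the sexes did not overlap. The typical cell differed less: the median per cell was 32.8 CPM in males and 25.7 CPM in females, and 19 of 27 cells reached 10 CPM in each sex. The gene lies on the minus strand at chr7:4539765-4547541. The log2 difference was -1.55 ± 0.32 (SE), and edgeR made no call (adjusted p = 0.866). It was called by DESeq2 on the same pools (adjusted p = 0.00149) and by edgeR when genes with low counts were kept (adjusted p = 0.00307), and the other 11 fits gave adjusted p-values of 0.165 to 0.9997. A pair of cells weighed heavily here: male cells 20 and 29, at 324 and 342 CPM, held 41.9% of the male counts. Without them the difference was -0.93 (adjusted p = 0.946).

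Syt5 also moved with markers of excitatory neurons. Its correlation with Slc17a7, the vesicular glutamate transporter, was 0.45 over 54 cells and 0.39, 0.68, 0.46 and 0.18 within the 4 pools. With the summed level of 8 listed excitatory markers, Slc17a7 among them, the correlation was 0.37 over 54 cells. Male cells 20 and 29 held 344 and 428 CPM of Slc17a7. In the pools Slc17a7 was 91.2 and 70.2 CPM in males and 20.6 and 6.08 CPM in females. Of the 8 excitatory markers listed, Tbr1 had a median of 0. The summed level of the 8 had medians per cell of 162, 101, 108 and 108 CPM in the 4 pools, with ranges of 51.2 to 929, 23.4 to 1111, 33.0 to 631 and 49.4 to 525 CPM. The part of these markers in the Syt5 difference was not tested. In Pvalb-leading cells the difference was -1.03 (adjusted p = 0.886). Against Gad1 and Syt2 the correlation of Syt5 was -0.35 and -0.21.

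The remaining members gave smaller or poorly measured differences. Syt7 read 48.9 and 53.2 CPM for males against 67.8 and 55.3 CPM for females, and its log2 difference was 0.27 ± 0.28 (SE). Syt3 differed by -0.27 ± 0.21, Syt4 by -0.20 ± 0.19 and Syt11 by -0.05 ± 0.17, the last turning to 0.12 without the males at P35. Leaving out 1 pool in turn took Syt7 from 0.12 (without females at P40) to 0.42 (without females at P42), Syt3 from -0.51 to -0.04 with the same pools left out, and Syt4 from -0.29 to -0.10 (without males at P36 and P35). Syt9 was 1.70 and 2.31 CPM in males and 0.0865 and 0.911 CPM in females, a log2 difference of -2.01 ± 1.72, and Syt6 differed by -1.34 ± 1.92. Without the females at P40 these were -1.13 (Syt9) and -5.77 (Syt6), and without the females at P42 -4.51 and -0.36. Their adjusted p-values in edgeR were 0.984 to 0.999. Syt10 did not pass the filter and was not tested.

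In all, 9 of the 10 members were tested and 0 were called by edgeR, where 0.0134% of all genes tested were called. At an unadjusted p under 0.05 there was 1 member, Syt5, beside 5.51% of all genes. DESeq2 called 1 member, beside 1.32% of all genes, and edgeR with no filter called 1, beside 0.547%. Pools of the sexes did not overlap for 5 of the 9 (Syt2, Syt4, Syt5, Syt7 and Syt9), beside 33.9% of all genes. The difference was negative in 8 of 9 and positive for Syt7, beside 7396 negative among all 14933 genes tested. Its median was -0.27 on the log2 scale, beside 0.0044 over all genes. Among the 8, Syt1 and Syt11 were at -0.05, less than their SE from 0, and turned positive without the males at P35. The Syt7 difference fell to 0.02 with cells thinned to 2 M counts. In simulated pools edgeR called 6% of genes changed 2-fold and 60% of those changed 4-fold, so a change of 2-fold would mostly be missed. Those pools also held 50 genes changed 8-fold and 50 changed 16-fold. Such genes ease the adjusted threshold, so both shares may be too high for the real pools, where few genes were called.

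**Figure D4:**
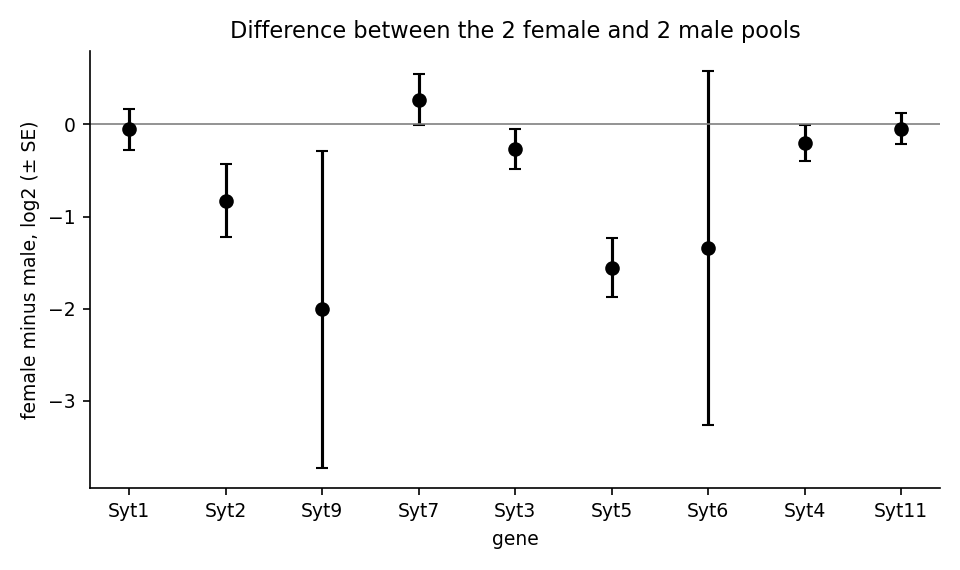
Log2 difference of females minus males (y axis) for the 9 members tested, from edgeR on 2 female and 2 male pools; bars are ± 1 SE. Syt1 and Syt11 sit at 0, Syt2 and Syt5 lie below it, Syt7 lies just above it, and the error bars of Syt6 and Syt9 are several log2 units long.

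Pvalb encodes the calcium buffer that names these cells, and its level said little of the Syt2 level in the same cell. Over 54 cells the Pearson correlation of log2(CPM + 1) was 0.25 and Spearman's rho 0.33, and with pool means removed r was 0.19. Within the pools r was 0.38, 0.22, -0.18 and 0.45. Without the 2 cells farthest from the median of Pvalb it was 0.33. Cells share animals, so these values describe the cells and carry no test. Of 15 cells with Syt2 under 10 CPM, 14 had at least 10 CPM of Pvalb, as had 47 of all 54 cells. Of 7 cells with Pvalb under 10 CPM, 6 had at least 10 CPM of Syt2, as had 39 of all 54. Female cell 3 held 403 CPM of Pvalb with 1.74 CPM of Syt2, and female cell 23 held 1.18 CPM of Pvalb with 70.8 CPM of Syt2.

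**Figure D5:**
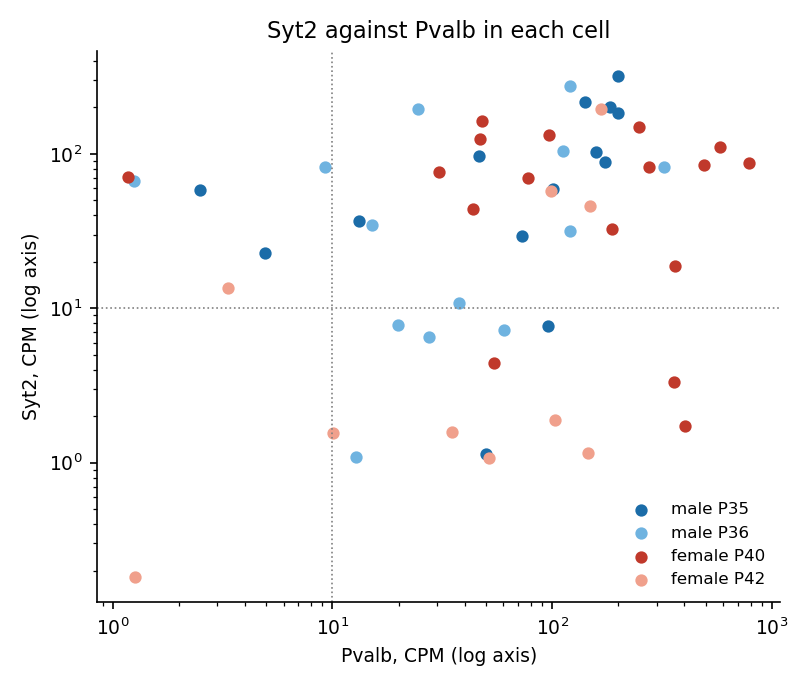
Each point is 1 Pass cell, with Pvalb on the x axis and Syt2 on the y axis, in CPM on log axes; dotted lines mark 10 CPM. The lower right holds 14 cells with Pvalb but little Syt2, and the upper left holds 6 with Syt2 but little Pvalb.

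Among the other members, Syt3 had r = 0.35 with Pvalb (0.23 without the 2 farthest cells), Syt1 0.10, Syt7 -0.10, Syt11 -0.12 and Syt5 -0.26. Between members, Syt1 and Syt11 had r = 0.52 overall and 0.33, 0.59, 0.76 and -0.19 within the pools. Syt7 showed r = 0.15 with Syt2 and -0.02 with Syt1.

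When all 10135 genes found at 1 CPM or more in at least 27 cells were ranked by their correlation with Syt2, with pool means removed, Pvalb came at rank 1838. The first 5 were Ldhb, a lactate dehydrogenase subunit (r = 0.64), Ina, the neurofilament protein internexin (0.62), Sparcl1, a secreted matrix protein (0.61), Gad1 (0.60) and Kcna1, an axonal potassium channel (0.60). Ldhb, Ina, Sparcl1 and Gad1 had an r of 0.35 or more in each of the 4 pools, while Kcna1 was at 0.03 in females at P40. The genes were picked by their correlation in these same cells, so the values within pools are no separate check. Genes near the top for Syt1 were Arfgef2, which activates small GTPases of the Golgi (r = 0.53), AI593442 (0.52), Prpf19, a splicing factor (0.52), and Clcn3, a chloride transporter of vesicles and endosomes (0.51). Those near the top for Syt7 were Pkmyt1, a cell cycle kinase (0.59), Polr2b, an RNA polymerase subunit (0.59), Rab28 (0.57) and Rpp25 (0.55). Both values of each pair come from the same library and share its depth.

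Syt2 also moved with marker lists of PV cells and of other cell types. Its correlation was 0.37 with the summed level of 8 PV markers, -0.36 with 4 Cck interneuron markers, 0.31 with 6 astrocyte markers and -0.25 with 8 excitatory markers. Gad1, named above, weighs heavily in the PV sum, with a median of 3560 CPM beside 86.9 CPM for Pvalb. The astrocyte list, none of whose 6 genes had a median of 0, summed to 385 to 1485, 227 to 1518, 293 to 4962 and 73.9 to 1607 CPM per cell in the 4 pools. The Cck list, in which Slc17a8 had a median of 0, summed to 73.1 to 1142, 35.4 to 1389, 3.62 to 1240 and 28.6 to 459 CPM. The part of these cell types in the Syt2 values was not tested.

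Within the release machinery, Syt2 went with some partners and not with others. Vamp1, the vesicle SNARE common in fast-spiking neurons, had 15.6, 173 and 854 CPM as lowest, median and highest, and r = 0.52 with Syt2 with pool means removed (0.55, 0.74, 0.66 and 0.10 within pools). Cplx1, a complexin that clamps and speeds fusion, ran from 1045 through 2507 to 3657 CPM and also had r = 0.52 (0.23, 0.69, 0.65 and 0.63). Snap25, a SNARE of the plasma membrane, had r = 0.38. Vamp2, the vesicle SNARE of most forebrain synapses, had r = -0.06 with Syt2, Cplx2 -0.08, Unc13a, a priming factor, -0.22, and Rph3a -0.21. The lowest values were those of Cadps2 (-0.35) and Sv2b (-0.29), which are described below. The calcium channel genes Cacna1a and Cacna1b had r = 0.17 and -0.18, and the active zone gene Rims1 0.18. Syt5 ran opposite to Vamp1, with r = -0.49 (-0.53, -0.89, -0.36 and -0.19 within pools). Vamp1 and Cplx1 did not go with Syt2 alone: Syt7 had r = 0.31 with Vamp1 and 0.33 with Cplx1.

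Of 41 release genes listed, all were tested between the sexes and 0 were called by edgeR, beside 0.0134% of all genes. Their median log2 difference was -0.20, beside 0.0044 over all genes. At an unadjusted p under 0.05 there were 2, beside 5.51% of all genes. Those were Sv2b, a synaptic vesicle glycoprotein, at -2.53 ± 0.41 (SE, adjusted p = 0.369), and Cadps2, a dense-core vesicle priming factor, at -3.56 ± 0.84 (adjusted p = 0.878). DESeq2 and edgeR with no filter each called both, beside 1.32% and 0.547% of all genes. Male pools held 54.2 and 52.6 CPM of Sv2b, and female pools 11.3 and 7.20 CPM. Over all Pass cells the median was 2.66 CPM for Sv2b (highest 312) and 1.20 CPM for Cadps2 (highest 237). The differences between pools therefore do not give that of a typical cell. Vamp1, Vamp2, Snap25, Cplx1, Cplx2, Unc13a, Rims1, Rph3a, Cacna1a and Cacna1b differed by -0.41 to 0.46 and none was called. Unc13c and Doc2b had a count in 22 cells each and a median of 0.

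Outside the 10 members, the synaptotagmin-type genes of highest median were Syt13 (178 CPM, from 29.4 to 474), Syt17 (116 CPM, from 2.14 to 423) and Rph3a (85.2 CPM, from 12.2 to 264). Each had a count in 54 of 54 cells. Syt8 had 0 counts in all 54.

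The labels give a resting potential, membrane resistance and capacitance, without units, each for 49 of the 54 cells, though not always the same cells. Spearman's rho of Syt2 with these was 0.07, -0.11 and 0.06, and that of the Syt2 to Syt1 ratio was 0.03, -0.10 and 0.11. The largest values among the members were 0.32 for Syt11 with resistance (0.08, 0.43, 0.46 and 0.05 within pools) and -0.31 for Syt4 with capacitance (-0.39, -0.43, -0.18 and -0.40). For comparison, Pvalb had -0.38 with resistance.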

How the data were processed

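Libraries were made with a Nextera XT kit from pipette cytosol, per the labels' protocols. STAR, edgeR and GRCm38 are named in the submitters' processing notes; for versions, counting tool, annotation and strand setting the sources used here give nothing. The authors deposited whole-number counts per gene, not normalized; no molecular identifiers are named, so intervals cover counting error only. Unmatched columns numbered 0.

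CPM per cell uses the cell's own total. Exon lengths and coding stretches came from GENCODE vM21 (GRCm38). Counts of Pass cells were summed into 4 pools, and genes with a count in at least 10 cells that passed filterByExpr were tested (14933) with edgeR 4.0.16 (R 4.3.3): TMM, quasi-likelihood F test, two-sided, Benjamini-Hochberg adjusted p under 0.05. Pool CPM in the sex comparison uses TMM-scaled totals; the SE is the absolute log2 difference over the square root of F. The fit was tested on simulated data. Alternatives used DESeq2 1.42.0 and limma 3.58.1, other filters, scalings and lengths, cells thinned to 2 M counts, and left-out pools or cells. Correlations use log2(CPM + 1). Antisense genes overlap exons of Syt4 (566 bases), Syt6 (505) and Syt7 (384); their reads cannot be told apart without strand.

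Named genes are the 10 members, Pvalb, Gad1, Gad2, Slc32a1, 12 set release genes and the 2 of smallest p, the 3 other synaptotagmin-type genes of highest median, the 5 genes most like Syt1, Syt2 and Syt7, and defining markers; some results are not reported here. The cells named were singled out by their values. Members and lists were chosen with earlier results of these data known.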

Additional observations from a re-analysis of the deposited data

Results flagged for a closer look

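Among the 10 cells of females at P42, female cell 20 lay far below the rest in Syt1, at 320 CPM, while the next lowest cell of the pool was at 560 CPM. Chance flags about 1 in 20 such groups, and 1 member was marked here of the 7 with a count in every cell.

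The 4 cells labelled Fail, left out of all comparisons, also held Syt2. It was 152 CPM in male cell 3, 5.03 CPM (3 counts) in male cell 4, 27.5 CPM in female cell 6 and 40.6 CPM in female cell 10. Their totals were 0.836, 0.596, 0.545 and 5.08 M counts, and Syt1 was 904, 728, 647 and 328 CPM, above Syt2 in all 4.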

How the results depend on the processing

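Syt2 exceeded Syt1 in 0 cells under all 6 alternatives. The pool ratio (11 alternatives), its difference between the sexes (7) and the correlation of Syt2 with Pvalb (7) each kept their sign and moved by less than the spread between pools. Some of these outcomes were fixed in advance and are no check. A count of 0 in 54 cells stays 0 in any subset of them. Leaving out 1 pool cannot move the ratio or its sex difference by more than that spread. The sex difference still ran from -0.36 (without females at P42) to -1.47 (without females at P40). The count of members called went from 0 to 1 with DESeq2 and to 1 with no filter on low counts, each time Syt5, and stayed at 0 in the other 10 fits. The count over all genes was 2 in the fit reported, 186 with DESeq2, 111 with no filter, 0 without cells in which Sst, Vip or Slc17a7 exceeded Pvalb, and 0 to 21 when 1 pool was left out. Leaving out 1 pool took the log2 difference of Syt1 from -0.34 to 0.30 and that of Syt11 from -0.19 to 0.12, positive without males at P35 in both; the cause was not tested. The fit without male cells 20 and 29 was chosen after seeing the data. No paired analysis was possible because the labels give no replicate numbers that groups share. Syt6, Syt9 and Syt10 had no count in most cells, among them female cell 3, the deepest, so their differences rest on few cells.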
